A study of Mus musculus with 15 samples.

Results

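The step from 24 to 72 hours of induction sets the ventricles of 3 mice after 72 hours of doxycycline (72h) against those of 3 mice after 24 hours (24h), 6 of the 15 mice of the series. Members were chosen by the time point in the labels, and where a mouse has more than 1 column of values the columns were averaged. All 6 mice were of the strain MHCrtTA/TRECUGBP1: the activator rtTA is made under the alpha myosin heavy chain promoter, active in heart muscle cells, and with doxycycline it switches on a tet-inducible, N-terminally Flag-tagged human Celf1 (LYLQ isoform). The mice of both times were 20 to 22 weeks old, had food taken away for a while and were then given food with 2 g/kg doxycycline. Each heart was washed free of blood, its atria and the tip of its apex were removed, and polyadenylated RNA of the remaining ventricle was sequenced, 1 heart per mouse with no pooling stated. Control mice (MHCrtTA, without the Celf1 transgene, 72 hours of doxycycline) entered 1 alternative fit of all 15 mice and no comparison. The mice at 12 hours (12h) and 7 days (7d) of the same strain entered the estimate of spread, and their levels and differences from 72h are given at the end.

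Celf1 is an RNA-binding protein that steers alternative splicing and the decay of messenger RNAs, and its excess in heart muscle is a feature of myotonic dystrophy. Several of the genes that differed most between 72h and 24h belong to the network of p53, a transcription factor that its target Mdm2 keeps low and that is stabilised by DNA damage and other stress. Its targets include inhibitors of the cell cycle, death receptors, members of the Bcl2 family, repair enzymes and its own regulators. Immediate early genes are those transcribed soon after a stimulus without new protein synthesis, and most encode transcription factors.

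The measurements are RPKM, that is, read numbers divided by gene length and by mapped reads. Differences are log2(RPKM + 1) at 72h minus 24h, so they understate the change of genes with low values, and each is followed by its standard error from limma fitted to the 12 induced mice. A gene is said to have risen or fallen, or is called, where its p adjusted by Benjamini and Hochberg over the 10651 genes whose RPKM averaged 1 or more in the 6 mice was under 0.05. Values of single mice follow the order A3264, A3278 and A3281 at 72h, and A3254, A3262 and A3277 at 24h. Where levels of a gene that rose or fell are given, the 2 times did not overlap unless stated otherwise. A value with ± in brackets after the levels of a gene is this difference. The limma p-values weigh each difference against the spread between mice of the same time, estimated over the 12 induced mice and not the 6 compared mice alone. Where leaving out 1 mouse ended a call that mouse is named, and counts of calls lost under other settings stand in the closing section. Estimated depth was 34.5 to 41.0 M reads per column at 24h. At 72h it was 46.4 M in 1 column of A3281 and 16.5 to 24.8 M in the other columns. Mice A3278 (72h) and A3262 (24h) stood apart in the median deviation of their genes from the 6-mouse mean, 0.247 and -0.192 on the log2 scale, against -0.041 to 0.023 in the other 4 mice. Across 10449 genes the Spearman correlation of this deviation with GC content was 0.63 in A3278, -0.40 in A3262, and between -0.34 and 0.13 in the other 4. Column codes of the 24h mice occur at no other time and those of the 72h mice not at 24h, so column code and time cannot be told apart; what the codes stand for is not stated. Whether the reads kept their strand is not stated either, so reads of genes that overlap on opposite strands cannot be told apart. Of the genes called below, Fam166a, Scand1, Ei24, Bak1, Plk3, Tap1, Egr1, Jun, Ccn2, Gclm, Sqstm1, Ppp1r15a, Hspa1a, Psma5, Mrps18b and Mpc1 among the rises and Eny2, Polr3gl, Cutc, Lrrc39, Etfrf1, Atp5md, Asph and Nppa among the falls overlap another gene model on the opposite strand in mm9, and the source of their reads is uncertain to that extent.

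Many more genes rose than fell. Of the 10651 genes 787 were called (7.39%), 621 higher (5.83%) and 166 lower (1.56%) at 72h, and 329 of the higher and 40 of the lower ones differed by more than 2-fold. At an unadjusted p under 0.05 in limma 1675 genes were higher and 773 lower, and such counts in the lists below stand against these. All 3 values at 72h lay above all 3 at 24h in 17.8% of genes and below them in 8.99%, and in 779 of the 787 called genes the 2 times did not overlap. The median of all genes was 0.08, and with median-of-ratios scaling or quantile normalization, which put it at -0.02 and -0.03, the split became 671 higher against 364 lower and 674 against 393. Without mouse A3262 there were 262 calls (226 higher, 36 lower), without A3278 424 (305 higher, 119 lower), without A3264 423 (379 higher, 44 lower), and without both A3278 and A3262 224 (165 higher, 59 lower). Of the called genes with a known GC content, 258 of the higher ones lay in the tertile of genes richest in GC and 133 in the poorest, and of the lower ones 25 and 84. After GC correction 777 were higher and 282 lower. In bulk tissue fewer cells of a type and less RNA per cell cannot be told apart.

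**Figure D1:**
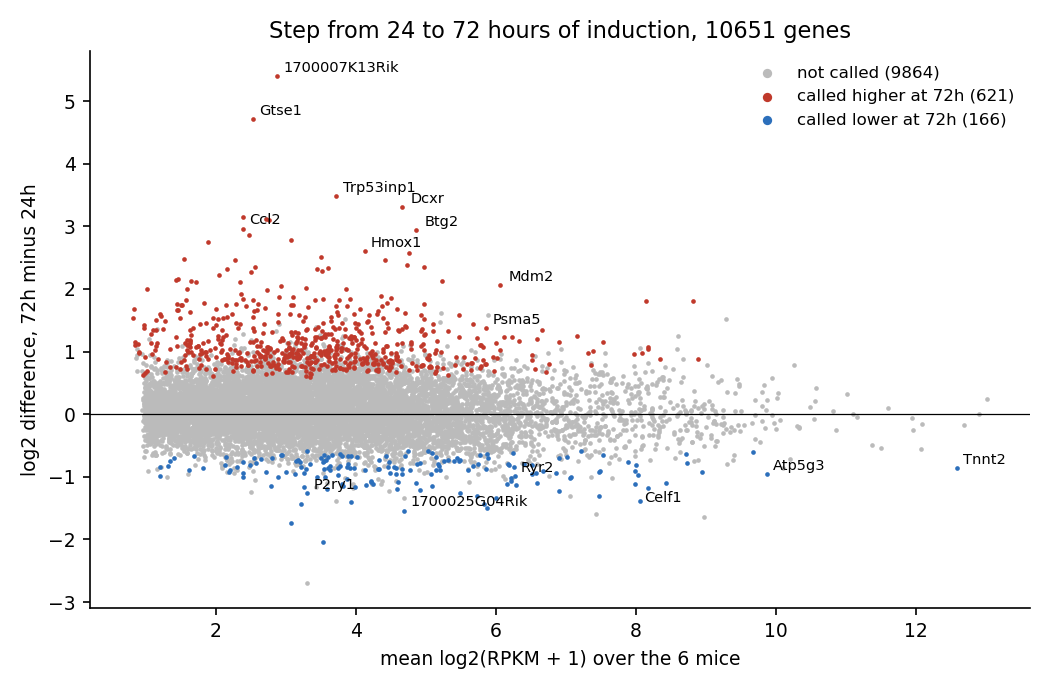
Log2 difference, 72h minus 24h (vertical axis), against the mean log2(RPKM + 1) over the 6 mice (horizontal axis) for the 10651 genes tested, with 621 genes called higher in red, 166 called lower in blue and the rest in grey. The called genes reach 5.40 upward (1700007K13Rik), while the highly expressed Tnnt2 lies at -0.86.

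The induced gene itself was lower at 72h. Celf1 (Cugbp1 in the deposited table) had 159, 179 and 181 RPKM at 72h, against 416, 295 and 423 RPKM at 24h, all 3 values at 72h below all 3 at 24h. It fell by 1.11 ± 0.22 (adjusted p = 0.00736 in limma with Benjamini-Hochberg adjustment), and its difference stayed between -1.30 and -1.02 and past the threshold in every alternative run. The exact two-sided permutation p was 0.1, which is as small as 3 against 3 allows. The row counts reads on the mouse gene (chromosome 2 from 90780539 to 90859654, mm9), so reads of the human transgene are in it only as far as they aligned there.

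The 2 largest rises were those of genes near the floor of the table at 24h. 1700007K13Rik, a RIKEN clone gene with no function named in the sources used here (chromosome 2 from 28317521 to 28321852, mm9, minus strand), had 47.3, 58.5 and 37.2 RPKM at 72h, against 0.25, 0.035 and 0.13 RPKM at 24h, a difference of 5.40 ± 0.29 (adjusted p = 4.8e-08, limma with Benjamini-Hochberg adjustment, as for every adjusted p below). Gtse1, a protein of dividing cells that moves p53 out of the nucleus (chromosome 15 from 85690137 to 85707002, plus strand), had 24.2, 37.2 and 25.9 RPKM at 72h, against 0.19, 0.05 and 0.14 RPKM at 24h and rose by 4.72 ± 0.36 (adjusted p = 1.83e-06). Their nearest neighbours were not called: Mrps2, 1734 bases from 1700007K13Rik, stood at 0.50, Ttc38, 885 bases from Gtse1, at 0.17, and Trmu, 2740 bases from Gtse1, at -0.05. With levels this low at 24h the difference depends on the pseudocount: with 0.1 in place of 1 it was 7.73 for 1700007K13Rik and 7.04 for Gtse1.

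Next came Trp53inp1, a p53-induced protein that promotes phosphorylation of p53, with 42.2, 36.2 and 52.2 RPKM at 72h, against 3.88, 1.91 and 3.35 RPKM at 24h (3.48 ± 0.23, adjusted p = 5.27e-07). Dcxr, a reductase of dicarbonyls and xylulose, had 74.9, 95.6 and 67.2 RPKM at 72h, against 7.66, 5.86 and 7.74 RPKM at 24h (3.30 ± 0.23). Rac3, a small GTPase, had 15.1, 21.2 and 9.88 RPKM at 72h, against 1.14, 0.395 and 0.84 RPKM at 24h (3.16 ± 0.28). These 2 lie on chromosome 11 on opposite strands 1430 bases apart, and Lrrc45, 342 bases from Rac3 on its other side, was also higher with 8.10, 9.19 and 6.77 RPKM at 72h, against 3.09, 2.44 and 3.38 RPKM at 24h (1.18 ± 0.21), while Cbr2, 2208 bases beyond Dcxr, was not called at 0.26. Lrrc45 was looked up as a neighbour after the values were seen, and its call was lost without A3278 and A3262 together (adjusted p = 0.0506).

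Secreted signals and an effector of cell death were among the other leading rises. Gdf15, a stress hormone of the TGF-beta family, had 13.8, 34.5 and 13.8 RPKM at 72h, against 1.25, 0.485 and 2.65 RPKM at 24h (3.10 ± 0.36). Ccl2, the chemokine that recruits monocytes, had 15.8, 12.8 and 12.7 RPKM at 72h, against 0.65, 0.295 and 2.12 RPKM at 24h (2.96 ± 0.32). Dffb, the nuclease that cuts DNA between nucleosomes in apoptosis, had 17.5, 26.3 and 20.2 RPKM at 72h, against 2.72, 1.64 and 2.36 RPKM at 24h (2.78 ± 0.24). In each of these 3 genes the lowest heart at 72h was several times the highest at 24h. Ddit4l, an inhibitor of the growth kinase mTOR, had 7.75, 7.94 and 10.3 RPKM at 72h, against 0.67, 0.37 and 0.25 RPKM at 24h (2.76 ± 0.36). Fam166a (BC061039 in the table) had 13.1, 32.4 and 14.3 RPKM at 72h, against 1.14, 1.62 and 0.98 RPKM at 24h (3.12 ± 0.35), and the gene model it overlaps is Tubb4b. Scand1, a SCAN domain gene, had 43.4, 134 and 47.4 RPKM at 72h, against 11.9, 4.02 and 20.5 RPKM at 24h (2.57 ± 0.70, adjusted p = 0.0371), and this call was lost without A3264 (0.0567), A3278 (0.137), A3254 (0.0625) or A3262 (0.185). The remaining 4 of the 15 largest rises, Btg2, Eda2r, Hmox1 and Egr1, are given with their lists.

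Genes of the p53 network rose in each of its 4 lists. Of 55 tested genes in them 29 rose and 0 fell. This is 52.7% against 5.83% of all genes, with a median of 1.0 against 0.08. At an unadjusted p under 0.05 in limma the numbers were 32 higher and 1 lower, against 1675 and 773 of all 10651 genes. Leaving out any 1 mouse gave 25 to 30 rises, and leaving out A3278 and A3262 together gave 19. These lists were drawn up with the p53 result known, so their counts describe the step and are not independent evidence.

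Among the regulators of p53, 6 of 11 rose, with a median of 0.82. Trp53, the gene of p53 itself, had 18.1, 34.3 and 17.6 RPKM at 72h, against 6.86, 5.01 and 8.92 RPKM at 24h and rose by 1.58 ± 0.29 (adjusted p = 0.00496, and 0.0646 without A3278 and A3262 together). Mdm2, the ubiquitin ligase that degrades p53, had 119.8, 139 and 149 RPKM at 72h, against 28.99, 35.3 and 31.02 RPKM at 24h and rose by 2.06 ± 0.21 (adjusted p = 4.38e-05), with the 3 hearts of each time close together. Ppm1d, a phosphatase that switches p53 signalling off, had 10.2, 14.6 and 12.4 RPKM at 72h, against 3.82, 4.28 and 5.14 RPKM at 24h (1.30 ± 0.26). Rchy1, another ubiquitin ligase of p53, had 21.6, 24.1 and 28.5 RPKM at 72h, against 16.8, 11.02 and 13.1 RPKM at 24h (0.82 ± 0.19). Rchy1 did not pass without A3281 (adjusted p = 0.0677) or A3262 (0.0939), and Ppm1d did not without A3278 and A3262 together (0.0721). Mdm4, the partner of Mdm2, did not pass, with 10.9, 6.94 and 14.5 RPKM at 72h and 10.5, 8.71 and 8.91 RPKM at 24h, and the 2 times overlapped.

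Among p53 targets in cell cycle arrest, 7 of 15 rose, with a median of 0.56. Cdkn1a, the p21 inhibitor of cyclin-dependent kinases, had 58.98, 98.1 and 59.9 RPKM at 72h, against 12.7, 11.6 and 14.6 RPKM at 24h (2.36 ± 0.32, adjusted p = 0.000381). Btg2, an antiproliferative cofactor of messenger RNA deadenylation, had 78.6, 108 and 59.8 RPKM at 72h, against 9.79, 7.13 and 12.3 RPKM at 24h (2.94 ± 0.29, adjusted p = 3.62e-05), a wider gap than that of Cdkn1a. Sesn2, a sensor that restrains mTOR, had 9.99, 15.1 and 10.03 RPKM at 72h, against 1.54, 1.24 and 2.06 RPKM at 24h (2.27 ± 0.24). The kinase gene Plk2 had 26, 28.4 and 33.02 RPKM at 72h, against 8.13, 7.50 and 9.47 RPKM at 24h (1.69 ± 0.24). Phlda3, an inhibitor of Akt, had 17.6, 44.8 and 23.2 RPKM at 72h, against 4.94, 2.56 and 6.52 RPKM at 24h (2.34 ± 0.35); in it, as in Cdkn1a, Btg2 and Sesn2, the heart of A3278 was the highest. Zmat3 rose by 1.08 ± 0.21 and Plk3 by 1.13 ± 0.22, and neither passed without A3278 and A3262 together (adjusted p = 0.0726 and 0.0797). Other classical targets of this list did not pass: Ccng1, a cyclin gene expressed at a far higher level, had 307, 239 and 422 RPKM at 72h and 409.6, 323 and 341 RPKM at 24h (-0.18 ± 0.22). Gadd45a had 11.7, 15.8 and 13.4 RPKM at 72h and 14.6, 11.9 and 10.2 RPKM at 24h (0.15 ± 0.31). In Ccng1 and Gadd45a the 2 times overlapped.

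Among p53 targets in apoptosis, 10 of 15 rose, with a median of 1.23, the highest median of the 4 lists. The death receptors rose together: Eda2r, the receptor of ectodysplasin A2, had 15.1, 11.1 and 16.2 RPKM at 72h, against 0.75, 1.65 and 0.86 RPKM at 24h (2.87 ± 0.23, adjusted p = 4.76e-06), Tnfrsf10b, the TRAIL receptor, had 8.88, 12.1 and 10.3 RPKM at 72h, against 1.31, 0.665 and 1.28 RPKM at 24h (2.46 ± 0.27). Fas had 13.5, 12.6 and 21 RPKM at 72h, against 6.84, 5.45 and 5.65 RPKM at 24h (1.23 ± 0.25). Pidd1 (Lrdd in the table), which assembles a caspase-activating platform, was under 1 RPKM at 24h and had 3.56, 6.88 and 4.42 RPKM at 72h, against 0.28, 0.27 and 0.36 RPKM at 24h (2.15 ± 0.22, adjusted p = 3.98e-05). The nuclease gene Aen had 64.4, 103 and 70.5 RPKM at 72h, against 19.4, 11.96 and 21.4 RPKM at 24h (2.12 ± 0.28). Members of the Bcl2 family that open the mitochondrial membrane were higher as well, Bax with 35.2, 51.7 and 39.7 RPKM at 72h, against 19.2, 9.47 and 19.4 RPKM at 24h (1.39 ± 0.30) and Bak1 with 16.9, 28.1 and 19 RPKM at 72h, against 7.23, 7.05 and 8.09 RPKM at 24h (1.37 ± 0.25). Apaf1, the core of the apoptosome, rose by 0.997 ± 0.20. Siva1 rose by 1.64 ± 0.40 and Bbc3 (Puma) by 1.11 ± 0.29, and these were the least stable: without A3262 the adjusted p was 0.0844 for Siva1, 0.137 for Bbc3 and 0.0673 for Bax. Siva1 also did not pass without A3264 (0.0634) or A3278 (0.0675), nor Bbc3 without A3278 (0.0974) or A3254 (0.08), nor Bak1 without A3278 and A3262 together (0.0551).

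Among p53 targets in repair and metabolism, 6 of 14 rose, with a median of 0.47. Dcxr, described above, led this list. Ercc5, a nuclease of nucleotide excision repair, had 20.7, 20.2 and 28.7 RPKM at 72h, against 6.25, 6.03 and 6.35 RPKM at 24h (1.73 ± 0.20, adjusted p = 0.000109). Polk, a DNA polymerase that copies past lesions, had 6.15, 4.78 and 8.43 RPKM at 72h, against 1.60, 1.51 and 1.42 RPKM at 24h (1.54 ± 0.20, adjusted p = 0.000245). In both genes the 3 hearts at 24h were nearly equal. Ei24, a membrane protein of the endoplasmic reticulum, had 45.6, 48.7 and 47.9 RPKM at 72h, against 20.2, 18.2 and 16.8 RPKM at 24h (1.32 ± 0.19). Tap1, a peptide transporter of antigen presentation, had 10.1, 22.4 and 10.5 RPKM at 72h, against 2.38, 1.69 and 5.61 RPKM at 24h (1.88 ± 0.33), and Cpt1c, a carnitine acyltransferase relative, rose by 1.02 ± 0.20 but not without A3278 and A3262 together (adjusted p = 0.0621). Among all 29 called genes, Rchy1, Ppm1d, Phlda3, Zmat3, Plk3, Fas, Bax, Bak1, Apaf1, Siva1, Bbc3 and Cpt1c are named beyond the naming rule, after their values were seen.

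**Figure D2:**
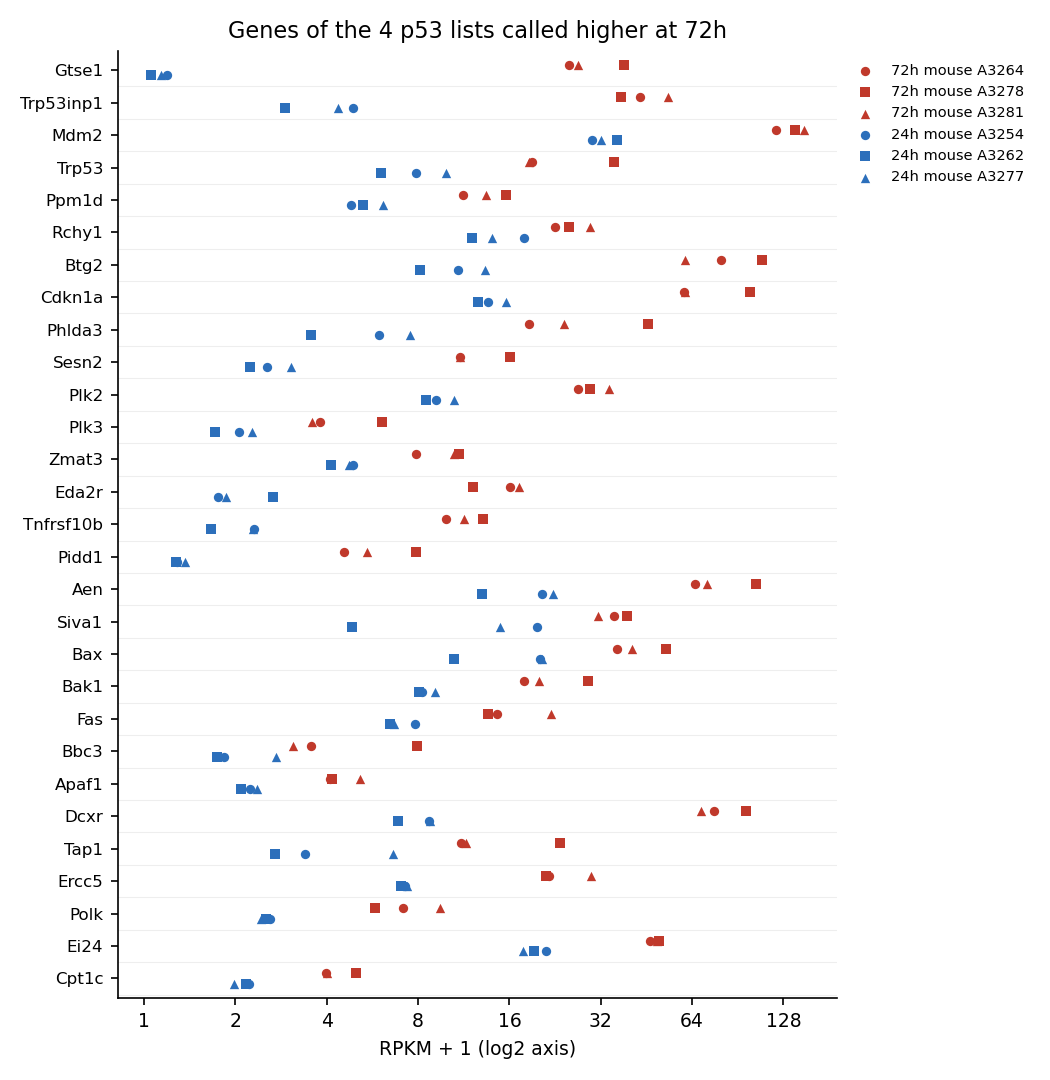
RPKM + 1 on a log2 axis in each of the 3 hearts at 72h (red) and the 3 hearts at 24h (blue) for the 29 genes of the 4 p53 lists that were called higher, regulators first, then arrest, apoptosis, and repair and metabolism. In each of these genes all red points lie to the right of all blue points, and mouse A3262 (blue square) is often the lowest.

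The promoters of these genes were read for the letters p53 binds. RefSeq windows (GRCm38.p6) from 250 bases before to 50 bases after each start site were searched on both strands for the p53 decamer, the unit of which a full p53 response element holds a pair. The stretches below are 30 bases long, 5′ to 3′ on the strand of the gene, with the matching letters in capitals, and were picked to show the match in genes that rose.
1700007K13Rik: ggaagattctAGACTTGCCTacagctagct
Gtse1: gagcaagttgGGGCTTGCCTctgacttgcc
Ddit4l: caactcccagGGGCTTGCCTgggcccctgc
Mdm2: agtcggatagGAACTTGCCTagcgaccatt
Ppm1d: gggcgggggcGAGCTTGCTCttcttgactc
Trp53: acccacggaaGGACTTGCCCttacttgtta
Cdkn1a: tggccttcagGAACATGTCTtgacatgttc
Aen: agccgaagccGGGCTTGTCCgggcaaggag
Bax: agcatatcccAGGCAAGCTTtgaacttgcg
Polk: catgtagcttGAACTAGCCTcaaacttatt
The first lies at chr2:28466396-28466425 on the minus strand, its match 91 bases before the start site, and the stretch of Mdm2 at chr10:117710925-117710954 on the minus strand, 186 bases before the start. That of Gtse1, at chr15:85859945-85859974 on the plus strand, begins its match 9 bases after the start site, and that of Cdkn1a, at chr17:29090918-29090947 on the plus strand, 51 bases before it. The first 4 matches end in the same run of letters.

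Of the 29 called genes of the p53 lists 26 have a window, and 11 of these hold the p53 decamer (42.3%), against 3 of 22 listed genes that were not called (13.6%) and 705 of 8526 tested genes with a window (8.27%). Over all 621 genes called higher the share was 8.53% (43 of 504 with a window), close to that of all genes, and over the genes called lower it was 13.5% (18 of 133). The 11 genes are Aen, Bax, Cdkn1a, Ei24, Gtse1, Mdm2, Polk, Ppm1d, Rchy1, Siva1 and Trp53, and among the 15 largest rises 1700007K13Rik and Ddit4l hold it besides Gtse1. Eda2r, Pidd1, Phlda3, Ercc5 and Dcxr have a window without these letters. Such a match is a string of letters and was not tested as a binding site.

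The cyclic AMP response element TGACGTCA stood in 3 of the 26 windows (11.5%), those of Btg2, Plk2 and Ppm1d, against 3.61% of tested genes with a window. It was picked from several motifs searched in these windows. Among the others, the E-box CACGTG stood in 6 (23.1% against 12.1%) and the heat shock element core GAANNTTC in 3 (11.5% against 6.97%). The TATA box stood in 2 (7.69% against 9.2%) and the AP-1 site in 1 (3.85% against 4.5%). The antioxidant response element core TGACNNNGC stood in 5 (19.2% against 17.2%). Of 2 sites of the factor NF-kappaB, GGGACTTTC stood in 1 (3.85% against 0.387%) and GGGANTTCC in 0 (0% against 2.79%). The amino acid response element TGATGCAA, an element that the stress factor Atf4 binds, was in 3 of the 504 windows of higher genes (0.595%, against 0.715% of all), and Atf3, a stress-induced repressor, was one of them. Among the 26 windows of the p53 lists this element stood in 1, that of Polk (3.85%). The stretches of Btg2 and Plk2 show the cyclic AMP response element and that of Atf3 the amino acid response element, on the opposite strand.
Btg2: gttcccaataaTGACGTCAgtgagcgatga
Plk2: agcgctcgccgTGACGTCAcgaggccccgc
Atf3: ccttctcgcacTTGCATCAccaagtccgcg
They lie at chr1:134079303-134079332 (minus strand), chr13:110394971-110395000 (plus strand) and chr1:191183425-191183454 (minus strand) of GRCm38.p6.

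Among the immediate early genes 16 of 31 rose and 0 fell (23 and 1 at an unadjusted p under 0.05 in limma), 51.6% higher against 5.83% of all genes, with a median of 1.03. The count was 8 without A3262, 9 without A3278 and 6 without both. With no filter on low values 9 of these 31 genes rose, and 11 rose when fitted to the 6 mice alone. Fos, a subunit of AP-1, had 5.67, 11.3 and 7.66 RPKM at 72h, against 0.76, 0.705 and 1.33 RPKM at 24h (2.22 ± 0.33, adjusted p = 0.00083). Its partner gene Jun had 45.9, 80.8 and 37.4 RPKM at 72h, against 21.6, 9.54 and 22.1 RPKM at 24h (1.58 ± 0.30). Egr1, a zinc finger factor, had 20.7, 49.95 and 17.1 RPKM at 72h, against 1.61, 2.91 and 9.58 RPKM at 24h (2.51 ± 0.43). Egr3 had 4.05, 9.01 and 3.27 RPKM at 72h, against 0.29, 0.185 and 1.22 RPKM at 24h (1.996 ± 0.29). Atf3 had 25.1, 36.4 and 15.96 RPKM at 72h, against 4.69, 5.97 and 8.48 RPKM at 24h (1.82 ± 0.29, adjusted p = 0.0015). In Fos, Jun, Egr1, Egr3 and Atf3 the heart of A3278 was the highest of the 6, and these 5 and Btg2, a member of this list too, passed without any 1 mouse and without A3278 and A3262 together.

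The calls of other members depended on single hearts. Junb had 22.4, 47.5 and 20.5 RPKM at 72h, against 5.41, 3.83 and 11.4 RPKM at 24h (1.997 ± 0.43) and did not pass without A3278 (adjusted p = 0.0523) or A3262 (0.0705). The flow-sensitive factor Klf2 had 21.9, 49.2 and 17.05 RPKM at 72h, against 10.8, 4.62 and 10.1 RPKM at 24h (1.60 ± 0.39), and without the same mice its adjusted p was 0.09 and 0.117. Ccn1 (Cyr61) and Ccn2 (Ctgf), secreted matricellular proteins, rose by 1.34 ± 0.32 and 1.52 ± 0.37; without A3278 the adjusted p was 0.0584 and 0.0868, and without A3262 0.0968 and 0.105. Zfp36, a protein that destabilises messenger RNAs with AU-rich elements, rose by 1.46 ± 0.35, and did not pass without A3264 (0.0629), A3278 (0.0804) or A3262 (0.108). Nr4a1, an orphan nuclear receptor, had 12.3, 26.9 and 9.32 RPKM at 72h, against 2.68, 3.64 and 5.01 RPKM at 24h (1.74 ± 0.35), and it passed without any 1 mouse but not without A3278 and A3262 together (0.0634).

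Chemokines and acute inflammation genes rose in part. Of 31 tested 11 rose and 0 fell (17 and 0 at an unadjusted p under 0.05 in limma), 35.5% higher against 5.83% of all genes, with a median of 0.68, and all 3 values at 72h were above all 3 at 24h in 16 of them, 17.8% being the share over all genes. The count was 3 without A3262, 6 without A3278 and 1 without both. With no filter on low values 5 of these 31 genes rose, and 6 rose when fitted to the 6 mice alone. Ccl2, the 1 member past the threshold in every alternative, was described above. Ccl7, its neighbour in the monocyte chemokine cluster, had 13.9, 14.03 and 9.57 RPKM at 72h, against 1.45, 0.4 and 4.27 RPKM at 24h (2.34 ± 0.46, adjusted p = 0.00649). Cxcl1, which attracts neutrophils, had 2.97, 9.36 and 5.89 RPKM at 72h, against 0.29, 0.48 and 0.77 RPKM at 24h (2.13 ± 0.43, adjusted p = 0.00821). Both passed without any 1 mouse, but not without A3278 and A3262 together (adjusted p = 0.0771 and 0.0857). Sele, an adhesion molecule of activated endothelium, had 1.86, 2.31 and 2.79 RPKM at 72h, against 0.29, 0.12 and 0.71 RPKM at 24h (1.29 ± 0.26, and adjusted p = 0.0549 without A3262). Saa3, an acute phase protein, had 3.69, 3.01 and 5.21 RPKM at 72h, against 0.66, 0 and 1.18 RPKM at 24h (1.67 ± 0.35, and adjusted p = 0.0657 without A3262). Socs3, a feedback inhibitor of cytokine signalling, had 7.47, 10.4 and 9.01 RPKM at 72h, against 1.75, 0.56 and 5.15 RPKM at 24h (1.73 ± 0.38, and adjusted p = 0.0724 without A3262). Cxcl1 and Sele were under 1 RPKM in all 3 hearts at 24h and reached the limit for testing through their values at 72h.

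Of the cells that such chemokines recruit, macrophage markers were not called higher, and the listed neutrophil and lymphocyte genes could not be tested. Over all genes 5.83% were called higher and 1.56% lower. At these shares marker lists of the sizes below would hold few calls. Of 21 macrophage markers 0 rose and 1 fell in limma (2 and 2 at an unadjusted p under 0.05): Cd163, a scavenger receptor of resident macrophages, had 2.85, 2.25 and 1.92 RPKM at 72h, against 4.77, 4.84 and 6.34 RPKM at 24h (-0.92 ± 0.25), a call lost without any 1 of the 6 mice (adjusted p from 0.054 without A3254 to 0.104 without A3277, with 0.0573 without A3264, 0.0849 without A3278, 0.0945 without A3281 and 0.0897 without A3262). The summed level of 7 defining macrophage markers was 63.6 to 126 RPKM at 72h and 64.7 to 113 RPKM at 24h. The 4 neutrophil markers found summed to 0.84 to 2.74 RPKM at 72h and 0.91 to 1.90 RPKM at 24h, and none of the listed neutrophil, T, B and NK cell genes reached the limit of 1 RPKM for testing. Of 27 endothelial markers 1, the tight junction gene Cldn5, rose (1.02 ± 0.25, not without A3278, A3281 or A3262, at adjusted p 0.0918, 0.0514 and 0.122), and of 20 fibroblast markers 0 were called (1 higher at an unadjusted p under 0.05 in limma), as were 0 of 13 mural cell markers (2 lower at an unadjusted p under 0.05). Of the 4 mesothelial markers 1 could be tested and rose: Wt1, a transcription factor of the mesothelium, had 2.65, 3.27 and 2.02 RPKM at 72h, against 1.09, 1.19 and 1.27 RPKM at 24h (0.73 ± 0.18), a call lost without any mouse but A3281 (adjusted p = 0.0782 without A3264, 0.0901 without A3278, 0.0645 without A3254, 0.09 without A3262 and 0.052 without A3277). The 4 summed to 3.14, 4.66 and 2.16 RPKM at 72h, against 1.64, 1.47 and 1.41 RPKM at 24h, without overlap. The red cell markers summed to 895, 1833 and 727 RPKM at 72h, against 587, 284 and 314 RPKM at 24h, higher in all 3 hearts at 72h than in all 3 at 24h. Only 2 of these 4 markers could be tested, and 0 were called. Summed cardiomyocyte markers were 23043 to 31741 RPKM at 72h and 27074 to 33799 RPKM at 24h, and summed fibroblast markers 431 to 555 RPKM at 72h and 347 to 449 RPKM at 24h. The part of such differences in the results was not tested.

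The antioxidant list rose in part as well. Of 32 genes 10 rose and 0 fell (12 and 1 at an unadjusted p under 0.05 in limma), 31.2% higher against 5.83% of all genes, with a median of 0.19; without A3262 there were 7 and without A3278 and A3262 together 5. Hmox1, haem oxygenase, had 36.5, 50.9 and 40.2 RPKM at 72h, against 7.34, 3.52 and 8.53 RPKM at 24h (2.60 ± 0.33, adjusted p = 0.000245). Gclm, the modifier subunit of glutathione synthesis, had 23.2, 25.4 and 36.1 RPKM at 72h, against 13.1, 11.7 and 11.4 RPKM at 24h (1.14 ± 0.20). Gsr, glutathione reductase, had 21.6, 28.9 and 25.3 RPKM at 72h, against 10.2, 9.45 and 8.52 RPKM at 24h (1.33 ± 0.22). Sqstm1, the autophagy adaptor p62, had 380.1, 459 and 403 RPKM at 72h, against 205, 174 and 226 RPKM at 24h (1.03 ± 0.20). These 4 passed in every alternative, and in each the lowest heart at 72h was well above the highest at 24h. Txnrd1, thioredoxin reductase, rose by 1.08 ± 0.21, Prdx6, a peroxiredoxin, by 1.35 ± 0.27, and Nfe2l2, the factor that drives many of these genes, by 0.74 ± 0.17. Mt2, a metal-binding metallothionein, had 51.8, 60.8 and 38.4 RPKM at 72h, against 10.8, 3.64 and 12.8 RPKM at 24h (2.47 ± 0.53, and adjusted p = 0.0652 without A3262), and Ftl1, a ferritin chain, rose by 1.07 ± 0.23 (adjusted p = 0.0566 without A3262). Nfe2l2 did not pass without A3264 (0.0556) or A3262 (0.0644). Of the 7 called members with a promoter window, 4 hold the core TGACNNNGC of the antioxidant response element (57.1%, against 17.2% of tested genes with a window). Over all genes called higher the share was 16.1% (81 of 504 with a window). This core was picked from several motifs searched, and a match was not tested as a binding site.

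In the list of Atf4 and the integrated stress response 4 of 24 rose and 0 fell (5 and 3 at an unadjusted p under 0.05 in limma), 16.7% higher against 5.83% of all genes. They were Gdf15, Sesn2, the amino acid transporter subunit Slc3a2 with 54.2, 69.4 and 48.7 RPKM at 72h, against 17.1, 13.98 and 17.4 RPKM at 24h (1.76 ± 0.20, adjusted p = 0.000109), and Ppp1r15a, which ends the translational arrest, with 43.1, 37.04 and 44.5 RPKM at 72h, against 15.8, 13.2 and 16.4 RPKM at 24h (1.40 ± 0.25). The count of rises was 4 without any 1 mouse, with 1 fall without A3278 or A3254. Atf4 itself had 67.97, 65.8 and 63.2 RPKM at 72h and 49.4, 60.5 and 36.8 RPKM at 24h (0.44 ± 0.20) and Ddit3 (Chop) 24.05, 38.5 and 27.6 RPKM at 72h and 26.9, 15.2 and 37.2 RPKM at 24h (0.24 ± 0.29, overlapping), and neither passed. Of 29 heat shock genes 3 rose (10.3%) and 0 fell (9 and 3 at an unadjusted p under 0.05). Dnajb1, a cochaperone of Hsp70, had 32.1, 38.4 and 29.8 RPKM at 72h, against 10.6, 9.39 and 10.9 RPKM at 24h (1.60 ± 0.21, adjusted p = 0.000283) and passed in every alternative. The near-identical Hsp70 genes Hspa1a and Hspa1b, whose reads cannot be told apart with certainty, rose by 1.26 ± 0.31 and 1.28 ± 0.32, calls lost without A3264, A3278, A3254 or A3262 (adjusted p for Hspa1a 0.0647, 0.0868, 0.0582 and 0.0994). Of 28 genes of endoplasmic reticulum folding 3 rose (10.7%) and 0 fell (7 and 0 at an unadjusted p under 0.05 in limma), 2 without A3254 and 1 without any other mouse.

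Subunits of the proteasome, which degrades ubiquitinated proteins, rose in part. Of 46 proteasome genes 9 rose and 0 fell (15 and 0 at an unadjusted p under 0.05 in limma), 19.6% against 5.83% of all genes, with a median of 0.25. The count was 8 without A3254, 7 without A3264 or A3281, 6 without A3278, A3262 or A3277, and 3 without A3278 and A3262 together. Psma5, a subunit of the core particle, had 83.7, 83.1 and 114 RPKM at 72h, against 44.9, 25.5 and 37.4 RPKM at 24h (1.37 ± 0.23, adjusted p = 0.00237). Psmb1, another, had 162, 169.7 and 199.9 RPKM at 72h, against 112, 57.8 and 76.4 RPKM at 24h (1.15 ± 0.22). Psmc4, an ATPase of the regulatory particle, had 68.6, 99.8 and 73.4 RPKM at 72h, against 41.1, 29.1 and 32.4 RPKM at 24h (1.21 ± 0.22). Psmd4, its ubiquitin receptor, had 100.5, 134 and 109.5 RPKM at 72h, against 59.7, 38.8 and 47.96 RPKM at 24h (1.23 ± 0.23). In all 4 the lowest 24h heart was that of A3262. Psmc4 and Psmd4 did not pass without A3278 and A3262 together (adjusted p = 0.0505 and 0.0587), whereas Psma5 and Psmb1 did. Fitted to the 6 mice alone, Psmb1 did not pass (adjusted p = 0.0527).

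In the list of muscle atrophy and autophagy 6 of 37 rose and 1 fell (16.2% and 2.70%, against 5.83% and 1.56% of all genes), and 3 rose without A3262. Ulk1, the kinase that starts autophagy, had 31.2, 50.1 and 27.9 RPKM at 72h, against 13.97, 9.02 and 14.3 RPKM at 24h (1.46 ± 0.23, adjusted p = 0.00167). Atg12, a ubiquitin-like conjugate of the autophagosome, had 24.03, 26.9 and 25.2 RPKM at 72h, against 13.3, 7.25 and 9.63 RPKM at 24h (1.29 ± 0.30, and adjusted p = 0.0897 without A3262). The muscle ubiquitin ligase gene Trim63 (MuRF1) did not pass, with 174, 225 and 178 RPKM at 72h and 268, 329.6 and 231 RPKM at 24h (-0.51 ± 0.21, adjusted p = 0.148), lower in all 3 hearts at 72h. Of the remaining lists of protein synthesis, the cytosolic ribosomal proteins had 4 of 80 higher (near the 5.83% of all genes; 0 without A3262, 1 without A3264, 2 without A3278 or A3277 and 8 without A3254). Their median was 0.31, against 0.08 for all genes, and -0.02 without A3278 and A3262 together. At an unadjusted p under 0.05 in limma 21 were higher and 4 lower (1675 and 773 of all 10651 genes), and quantile normalization gave 12 rises. Ribosome biogenesis had 5 of 47 higher (10.6%; 3 without A3278, 1 without A3262 and 2 without any other mouse but A3277) and translation factors 2 of 49 higher and 2 lower (4.08% each; 0 and 0 without A3262, 1 and 0 without A3264, and 1 higher without A3278, A3281 or A3277). Ddx56, a helicase of ribosome assembly, had 19.2, 29.5 and 20.4 RPKM at 72h, against 10.4, 6.75 and 10.2 RPKM at 24h (1.25 ± 0.22) and passed in every alternative. Eif4e, the cap-binding factor, had 57.4, 65.5 and 70.8 RPKM at 72h, against 103, 174 and 151 RPKM at 24h and fell by 1.10 ± 0.24 (adjusted p = 0.0136), a call lost without A3264 (0.0558) or A3262 (0.0679). None of the 20 aminoacyl-tRNA synthetases was called in limma, with 2 higher and 4 lower at an unadjusted p under 0.05.

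**Figure D3:**
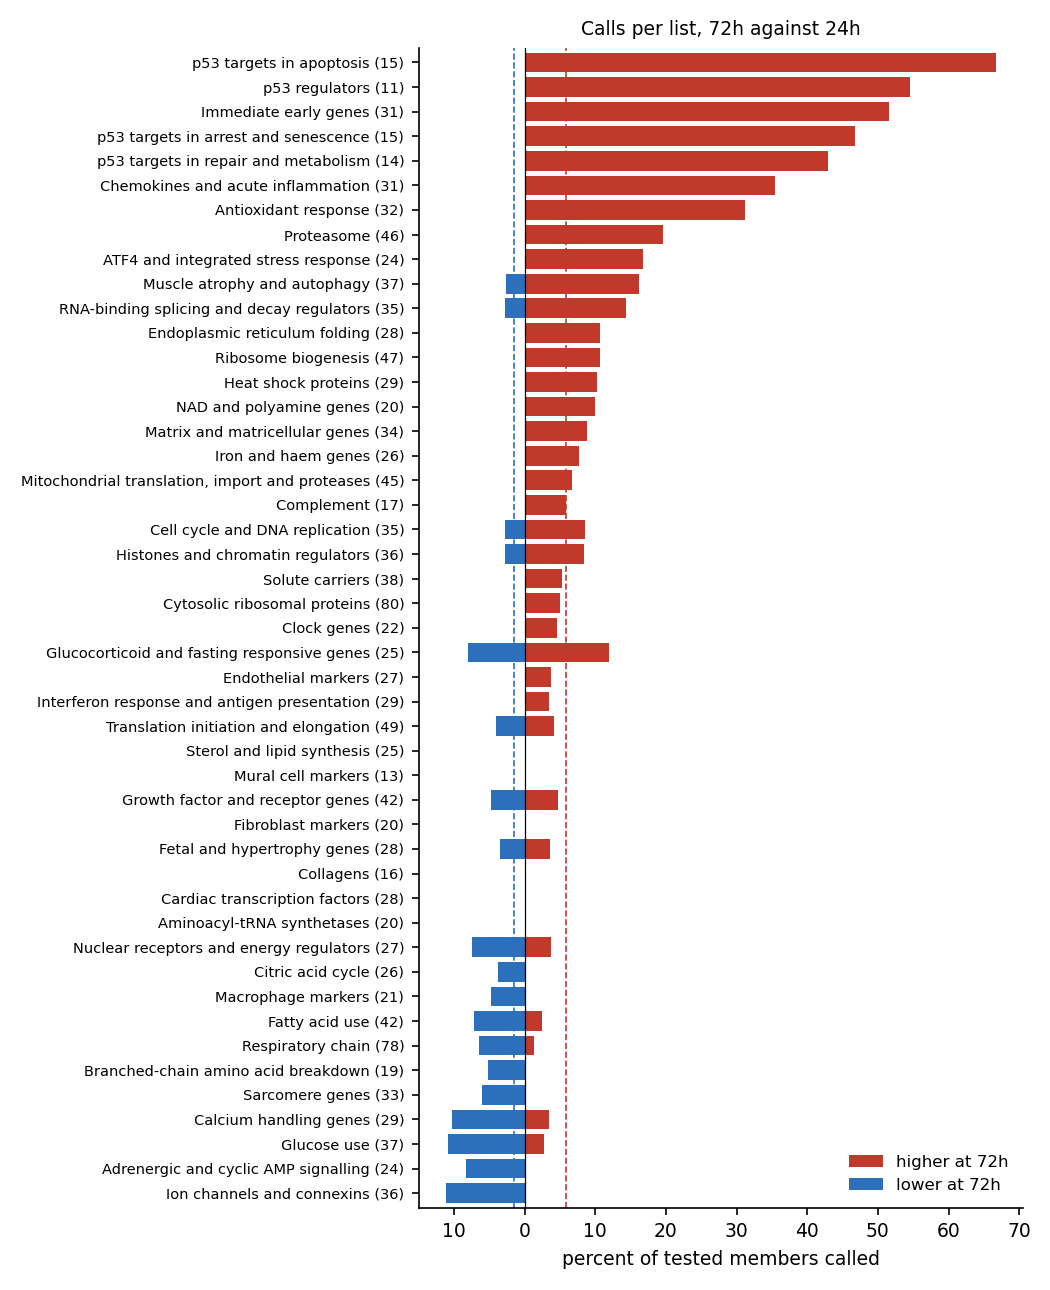
Percent of the tested members of each list with at least 10 tested genes (number in brackets) called higher (red, to the right) or lower (blue, to the left) at 72h; dashed lines mark the 5.83% and 1.56% of all genes. The p53 lists, the immediate early genes and the chemokines reach 35.5% to 66.7% higher, and no list has more than 11.1% lower.

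The falls were smaller and fewer than the rises. The largest among genes whose times did not overlap was that of the homeobox gene Rhox8, with 4.29, 1.13 and 7.79 RPKM at 72h, against 9.83, 15.4 and 19.7 RPKM at 24h (-1.74 ± 0.44). 1700025G04Rik, a RIKEN clone gene (chromosome 1 from 153731654 to 153937450, mm9), had 14.5, 10.9 and 17.98 RPKM at 72h, against 27.8, 56.97 and 50.4 RPKM at 24h (-1.54 ± 0.27, adjusted p = 0.00337). P2ry1, a receptor for ADP, had 5.58, 4.51 and 6.21 RPKM at 72h, against 14.1, 15.2 and 13.7 RPKM at 24h and fell by 1.26 ± 0.21 (adjusted p = 0.0019), with its 3 hearts at either time close together. Atg10, an enzyme of autophagosome formation, had 6.89, 7.47 and 6.54 RPKM at 72h, against 16.4, 21.5 and 14.2 RPKM at 24h and fell by 1.19 ± 0.20. The calls of 1700025G04Rik, P2ry1 and Atg10 held in every alternative. That of Rhox8 did not hold without A3264 (adjusted p = 0.0556), A3278 (0.0964), A3262 (0.0971) or A3277 (0.0812).

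Of the other genes among the 15 largest falls, all but Eny2 and Polr3gl lost their call without A3262. Eny2, a subunit of complexes of transcription and messenger RNA export, had 28.8, 24.3 and 31.1 RPKM at 72h, against 57.6, 94.4 and 57.8 RPKM at 24h (-1.25 ± 0.23). Polr3gl, a subunit of RNA polymerase III, had 16.97, 12.7 and 15.5 RPKM at 72h, against 27.9, 39.8 and 39.7 RPKM at 24h (-1.19 ± 0.22); both calls held without any 1 mouse. Nexn, the Z-disc protein nexilin, had 129, 63.7 and 172 RPKM at 72h, against 263, 334 and 251 RPKM at 24h (-1.31 ± 0.29), and its adjusted p was 0.061 without A3262. Lrrc39, an M-band protein, had 85.01, 48.1 and 113 RPKM at 72h, against 145, 293 and 142 RPKM at 24h (-1.22 ± 0.31), and was lost without A3264 (0.0567), A3278 (0.0964) or A3262 (0.124). Atp5md (Usmg5), a membrane subunit of ATP synthase, had 237, 146 and 127 RPKM at 72h, against 272, 847 and 341 RPKM at 24h (-1.38 ± 0.37), lost without A3278 (0.0912), A3281 (0.0912) or A3262 (0.142). The other 6 were Ttc5, Coa5, Etfrf1, Tm2d1, Ndufa1 and Cutc, at -1.44 to -1.16, and each lost its call without A3262 (adjusted p = 0.107, 0.108, 0.15, 0.151, 0.06 and 0.0533 in this order). Cutc passed without any other single mouse. Ttc5 was also lost without A3264 (0.101) or A3277 (0.052), Coa5 without A3281 (0.0715) or A3277 (0.0636), and Etfrf1 without A3278 (0.104) or A3254 (0.068). Tm2d1 was lost without any mouse but A3254, and Ndufa1 also without A3264 (0.0597), A3281 (0.0812) or A3254 (0.0625).

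**Figure D4:**
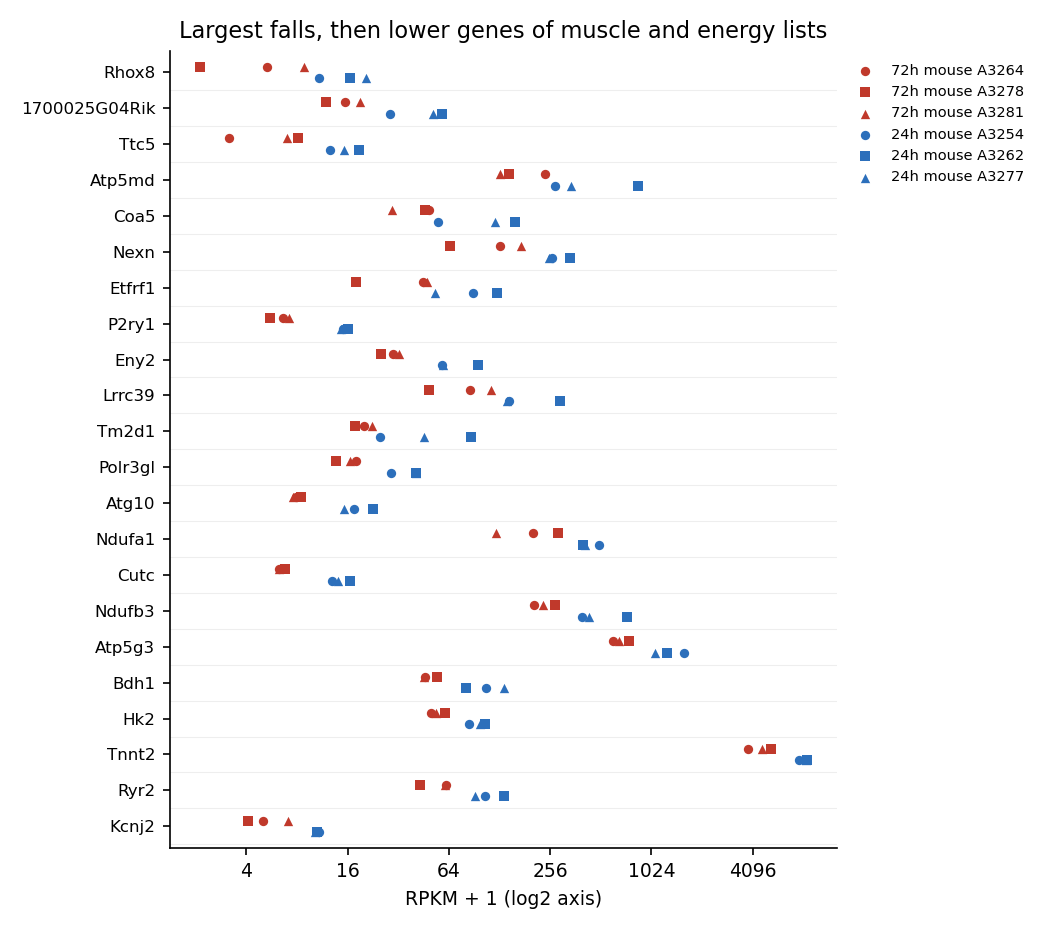
RPKM + 1 on a log2 axis in each heart at 72h (red) and 24h (blue) for the 15 largest falls and 7 further lower genes of the muscle and energy lists. The 15 were picked among called genes whose times did not overlap, so their separation follows from the choice. In the 7 others all red points also lie to the left of all blue points. Mouse A3262 (blue square) is far to the right of the other 24h hearts in Atp5md, Lrrc39, Tm2d1 and Ndufb3.

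Genes of contraction and excitation leaned lower, though few passed. Fitted to the 6 mice alone, the calcium handling and sarcomere lists had 0 falls and the ion channel list 1. Of 29 calcium handling genes 3 fell and 1 rose (10.3% and 3.45%, against 1.56% and 5.83% of all genes), with a median of -0.31 against 0.08 for all genes, and all 3 values at 72h were below all 3 at 24h in 11 of them, 8.99% being the share over all genes. Ryr2, the calcium release channel of the sarcoplasmic reticulum, had 60.9, 42.4 and 59.99 RPKM at 72h, against 103, 134 and 90.3 RPKM at 24h and fell by 0.99 ± 0.23 (adjusted p = 0.0195), a call lost without A3278 (0.0708) or A3262 (0.0901). Asph, whose locus also encodes junctin, and the calcium pump gene Atp2b1 fell by 0.92 ± 0.23 and 0.73 ± 0.18, and neither passed without A3264 (adjusted p = 0.0732 and 0.0795), A3278 (0.0631 and 0.065), A3262 (0.089 and 0.0948) or A3277 (0.0887 and 0.0506). Falls numbered 0 without A3262 and 1 without A3264 or A3278. Phospholamban, Pln, the inhibitor of the calcium pump, had 1192, 1268 and 1069.6 RPKM at 72h and 1331, 589 and 1026 RPKM at 24h (0.34 ± 0.26) and the 2 times overlapped.

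Of 36 ion channel and connexin genes 4 fell and 0 rose (8 and 1 at an unadjusted p under 0.05 in limma), 11.1% lower against 1.56% of all genes, with a median of -0.21. Kcnj2, which sets the resting potential, had 4.04, 3.11 and 6.07 RPKM at 72h, against 9.82, 9.47 and 9.28 RPKM at 24h (-0.997 ± 0.28, adjusted p = 0.0416). Kcnj2 did not pass without A3264 (0.11), A3278 (0.14), A3254 (0.0832), A3262 (0.119) or A3277 (0.0798). Without A3262 the list had 0 calls, without A3254 2, and without any other mouse 1. Gja1, the main ventricular connexin, had 67.5, 95.8 and 70.7 RPKM at 72h and 101, 95.9 and 119.9 RPKM at 24h (-0.44 ± 0.22) and did not pass. Of 33 sarcomere genes 2 fell (6.06%) and 0 rose (5 and 0 at an unadjusted p under 0.05), Nexn and Tnnt2, cardiac troponin T, which had 3852, 5262 and 4660.2 RPKM at 72h, against 7707, 8598 and 8517 RPKM at 24h (-0.86 ± 0.24, adjusted p = 0.0374). Tnnt2 did not pass without A3264 (0.151), A3281 (0.073), A3254 (0.051), A3262 (0.113) or A3277 (0.097). Myh6, the main myosin heavy chain of the mouse ventricle, had 5761, 7036 and 5931 RPKM at 72h and 7992, 5329.9 and 8007 RPKM at 24h, overlapping between the times. Cardiac transcription factors had 0 of 28 called in limma, with 5 higher and 3 lower at an unadjusted p under 0.05 (1675 and 773 of all 10651 genes).

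Of 78 respiratory chain genes 5 fell and 1 rose (6.41% and 1.28%, against 1.56% and 5.83% of all genes), with a median of -0.18; the counts of falls were 1 to 7 without any 1 mouse, with 1 without A3264, 2 without A3281 or A3262 and 3 without A3254. Ndufb3, a subunit of complex I, had 204, 274 and 231 RPKM at 72h, against 396, 736 and 437 RPKM at 24h (-1.10 ± 0.23, adjusted p = 0.01) and held without any 1 mouse, but not when fitted to the 6 mice alone (0.069). Atp5g3, a chain of the ATP synthase ring, had 606, 758 and 655 RPKM at 72h, against 1595, 1267 and 1075 RPKM at 24h (-0.95 ± 0.21, and adjusted p = 0.0677 without A3264). Ndufab1, an acyl carrier protein of complex I, went the other way with 377, 403 and 358 RPKM at 72h, against 229.9, 163 and 189 RPKM at 24h (0.98 ± 0.26), a call that ended without any mouse but A3254 (adjusted p = 0.124 without A3262). Bdh1, a ketone body enzyme of the list of fatty acid use, had 45.4, 53.5 and 44.7 RPKM at 72h, against 105, 79.8 and 136 RPKM at 24h and fell by 1.11 ± 0.24 (adjusted p = 0.0111), a call kept in every alternative. In that list 3 of 42 fell and 1 rose (7.14% and 2.38%; 1 fell without any mouse but A3277), and in the list of glucose use 4 of 37 fell and 1 rose (10.8% and 2.70%). Hk2, a hexokinase, had 49.4, 59.5 and 52.9 RPKM at 72h, against 83.7, 104 and 97.3 RPKM at 24h (-0.80 ± 0.19, and adjusted p = 0.0802 without A3264, 0.0503 without A3281, 0.0807 without A3262 and 0.0513 without A3277), and Mpc1 (Brp44l), a subunit of the mitochondrial pyruvate carrier, was higher with 245, 218 and 247 RPKM at 72h, against 199, 87.9 and 90.1 RPKM at 24h (1.02 ± 0.27), a call that ended without any mouse but A3254 (adjusted p = 0.15 without A3262). Falls in glucose use numbered 0 without A3264, A3281, A3262 or A3277. Fitted to the 6 mice alone, the lists of the respiratory chain and glucose use had 0 falls and that of fatty acid use 1.

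Of 6 tested atrial genes 2 fell, Myl7 and Nppa, 33.3% against 1.56% of all genes, in ventricles from which the atria had been cut. Of the 6 differences 4 were negative and 2 positive. Fitted to the 6 mice alone, 0 of these genes were called. The summed level of 4 atrial markers was 32.9, 134 and 41.3 RPKM at 72h, against 232, 214 and 175 RPKM at 24h, and how much atrial tissue was left was not tested. Myl7, the atrial myosin light chain, had 1.80, 18.4 and 2.46 RPKM at 72h, against 32.1, 22.2 and 15.8 RPKM at 24h (-2.03 ± 0.51, adjusted p = 0.0257). Nppa, the atrial natriuretic peptide, had 20.8, 67.2 and 27.4 RPKM at 72h, against 129, 64.8 and 111 RPKM at 24h (-1.503 ± 0.39, adjusted p = 0.0284). In both the heart of A3278 overlapped the 24h hearts, and without it 4 of the 6 tested atrial genes were called lower. Neither passed without A3264 (adjusted p = 0.106 and 0.12), A3281 (0.0793 and 0.0763) or A3254 (0.0744 and 0.081), nor Myl7 without A3262 (0.0852) or Nppa without A3277 (0.074). Sln, sarcolipin of the atrium, had 0.955, 13.04 and 1.17 RPKM at 72h and 15.1, 98 and 8.97 RPKM at 24h, overlapping between the times, and did not pass (adjusted p = 0.0582).

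Of 35 cell cycle and replication genes 3 rose and 1 fell (8.57% and 2.86%, against 5.83% and 1.56% of all genes): besides Gtse1, Rrm2, the regulated subunit of ribonucleotide reductase, had 8.6, 10.9 and 9.31 RPKM at 72h, against 1.5, 1.27 and 1.58 RPKM at 24h (2.11 ± 0.28, adjusted p = 0.000321) and passed in every alternative, while Pcna, the replication clamp, had 25.7, 25.5 and 25.7 RPKM at 72h, against 37.5, 40.9 and 38.7 RPKM at 24h and fell by 0.59 ± 0.16, a call lost without A3264 (adjusted p = 0.0983), A3278 (0.0703), A3281 (0.0759), A3254 (0.051), A3262 (0.107) or A3277 (0.0729). Thbs1, thrombospondin, had 12.3, 19.8 and 12.6 RPKM at 72h, against 3.23, 1.69 and 3.63 RPKM at 24h (2.05 ± 0.28, adjusted p = 0.000364) and passed in every alternative, in a matrix list with 3 of 34 higher (8.82%; 1 without A3278 or A3262). None of 16 collagen genes was called in limma (2 higher at an unadjusted p under 0.05). Col1a1 had 33.7, 73.3 and 28.7 RPKM at 72h and 26.5, 14.9 and 41.7 RPKM at 24h (0.68 ± 0.35), and the 2 times overlapped. Setd2, the histone methyltransferase of transcribed genes, had 16.7, 12.6 and 20.3 RPKM at 72h, against 7.04, 6.78 and 5.48 RPKM at 24h (1.22 ± 0.21). Slc19a2, a thiamine transporter, had 4.70, 7.07 and 5.21 RPKM at 72h, against 1.72, 1.88 and 1.82 RPKM at 24h (1.23 ± 0.21); both passed in every alternative. Of 35 RNA-binding regulators 5 rose (14.3%) and 1, Celf1, fell. Tra2a, a splicing activator of the SR type, had 37.5, 39.5 and 38.9 RPKM at 72h, against 21.1, 11.9 and 24.2 RPKM at 24h (1.04 ± 0.25). Its relative Tra2b had 41.3, 42.6 and 47.1 RPKM at 72h, against 25.1, 18.8 and 26.8 RPKM at 24h (0.88 ± 0.20). Tra2a did not pass without A3264 (adjusted p = 0.0617), A3278 (0.0573), A3281 (0.0513) or A3262 (0.11), and Tra2b not without A3281 (0.0532) or A3262 (0.0888). The list had 0 rises without A3262, 1 without A3278 and 2 without A3264. Mbnl1, whose loss is the other arm of myotonic dystrophy, had 25.2, 26.6 and 23.9 RPKM at 72h and 36.4, 35.02 and 32.4 RPKM at 24h (-0.44 ± 0.19, adjusted p = 0.176).

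Lists not described so far held at most 5 calls each, and their shares stand against 5.83% higher and 1.56% lower over all genes. The glucocorticoid and fasting list had 3 of 25 higher and 2 lower (12% and 8%). Zbtb16, a zinc finger gene that glucocorticoids induce, had 24.5, 20.8 and 21.02 RPKM at 72h, against 43.5, 35.02 and 37.8 RPKM at 24h (-0.78 ± 0.17). Errfi1, a feedback inhibitor of epidermal growth factor receptors, had 13.5, 20.2 and 12.5 RPKM at 72h, against 5.71, 5.94 and 6.48 RPKM at 24h (1.19 ± 0.24); both passed without any 1 mouse. Growth factors and receptors had 2 of 42 in either direction (4.76%), histones and chromatin regulators 3 of 36 higher and 1 lower (8.33% and 2.78%), nuclear receptors and energy regulators 1 of 27 higher and 2 lower (3.70% and 7.41%), and adrenergic signalling 2 of 24 lower (8.33%). Pde4d, a phosphodiesterase of cyclic AMP, had 3.96, 3.52 and 3.88 RPKM at 72h, against 7.29, 10.3 and 6.91 RPKM at 24h (-0.92 ± 0.19, and adjusted p = 0.0651 without A3262). Mitochondrial translation and import had 3 of 45 higher (6.67%, near the share of all genes), among them the ribosomal subunit gene Mrps18b with 43.7, 59.5 and 43.96 RPKM at 72h, against 24.1, 14.4 and 17.4 RPKM at 24h (1.36 ± 0.27), which passed without any 1 mouse. Iron and haem genes and NAD and polyamine genes had 2 rises each (7.69% of 26 and 10% of 20), and solute carriers 2 of 38 (5.26%). Clock genes, complement and interferon genes had 1 rise each (4.55% of 22, 5.88% of 17 and 3.45% of 29), fetal genes 1 of 28 in either direction (3.57%), and the citric acid cycle and branched-chain amino acid lists 1 fall each (3.85% of 26 and 5.26% of 19). Sterol and lipid synthesis had 0 calls of 25 in limma, with 4 higher and 1 lower at an unadjusted p under 0.05 (1675 and 773 of all 10651 genes). Most of these small counts moved by more than 1.5 times without a single mouse. Without A3262, the mouse that ended most calls, complement, clock, citric acid cycle, branched-chain, adrenergic and NAD lists had 0 calls, and the iron and mitochondrial lists 1 rise each. The interferon count was the same without any 1 mouse.

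The levels at 12h and 7d place the step in the time course, with the caution that the differences between neighbouring times share mice. 1700007K13Rik had 0, 0 and 0.15 RPKM at 12h and 2.66, 7.82 and 2.66 RPKM at 7d, so its highest levels of the 4 times were those at 72h. Mdm2 had 23.9, 22.4 and 18.5 RPKM at 12h and 33.3, 48.1 and 27.4 RPKM at 7d, and Dffb had 2.06, 1.70 and 1.53 RPKM at 12h and 1.19, 3.08 and 1.92 RPKM at 7d, so that at 7d both overlapped their levels at 24h. Cdkn1a, in contrast, had 6.53, 12.99 and 17.6 RPKM at 12h and 39.3, 84.5 and 59.7 RPKM at 7d, overlapping the 72h hearts. Its difference of 7d minus 72h was -0.26 ± 0.32, against -1.91 ± 0.21 for Mdm2 and -2.90 ± 0.24 for Dffb.

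Hmox1 and Ccl2 were higher still at 7d, Hmox1 with 87.3, 237 and 179.6 RPKM and Ccl2 with 23.8, 58.5 and 40.3 RPKM, differences of 1.86 ± 0.33 and 1.42 ± 0.32 from 72h. Celf1 had 219.7, 351 and 345 RPKM at 12h and 37.9, 30.9 and 29.5 RPKM at 7d, and its difference of 7d minus 72h was -2.37 ± 0.22. P2ry1 had 11.5, 10.1 and 9.25 RPKM at 12h and 2.04, 1.71 and 3.38 RPKM at 7d, lower at each time after 24h. Among the falls, Eny2 and Polr3gl had 30.9, 33.7 and 20.3 RPKM and 11.2, 15.7 and 14.7 RPKM at 12h and 31.9, 38.3 and 36.6 RPKM and 9.30, 12.3 and 15.6 RPKM at 7d, so their 24h hearts were the highest of the 4 times. Eif4e likewise had 67.2, 64.6 and 59.96 RPKM at 12h and 27.1, 49.3 and 46.98 RPKM at 7d.

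**Figure D5:**
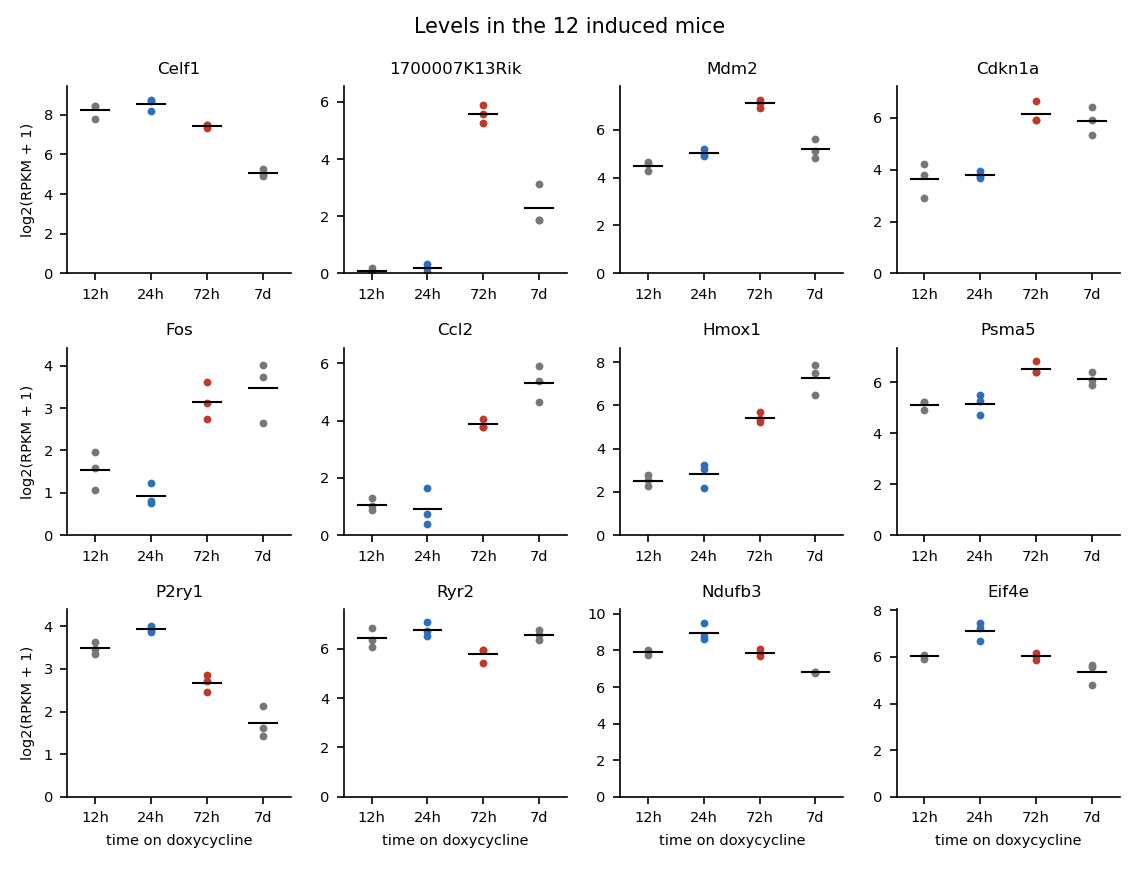
Log2(RPKM + 1) in the 3 hearts at each of 12h, 24h (blue), 72h (red) and 7d of doxycycline for 12 genes, with bars for the means. 1700007K13Rik and Mdm2 are highest at 72h, Ccl2 and Hmox1 at 7d, and Eif4e and Ndufb3 at 24h.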

How the data were processed

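Polyadenylated RNA of the ventricle of single mice was sequenced. The authors deposited 1 table of RPKM values for 16042 genes in 20 columns; 0 columns belong to no sample. Per the submitters' processing notes TopHat, Bowtie and the genome build mm9 were used. Their versions, how reads were counted and whether strand was kept is not given in the sources used here. RPKM divides reads by gene length and by mapped reads, so a few abundant muscle transcripts can shift all other values, and GC content can bias single libraries. Mice A3264, A3281 and A3262 have 2 columns each, which were averaged. On log2(RPKM + 1) the 2 columns differed by more than 2-fold in 319 of the 10651 genes for A3264. For A3281 this held in 36 genes and for A3262 in 59. Depth is not in the table and was estimated from the steps between low values.

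Values were analysed as log2(RPKM + 1) with a pseudocount of 1, keeping genes whose RPKM averaged 1 or more in the 6 mice, with limma 3.58.1 in R 4.3.3 (trended empirical Bayes, 12 induced mice, 3 per time, 8 residual degrees of freedom) and Benjamini-Hochberg adjustment over 10651 genes; other steps used Python 3.11.15. No count test was run, since the values are not counts. Symbols were updated through RefSeq by gene ID (15988 matched), and promoter windows are RefSeq's.

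Named genes are the 15 largest rises and the 15 largest falls among called genes whose times did not overlap, Celf1, and the 4 lowest p of each list. Members and lists were chosen with earlier results of these data known, and the lists come from general knowledge. Beyond this rule, after their values were seen, Jun, Junb, Klf2, Nr4a1, Socs3, Saa3, Nfe2l2, Prdx6, Txnrd1, Mdm4, Ccng1, Atf4, Ddit3, Gadd45a, Mbnl1, Myh6, Gja1, Pln, the neighbours of the largest rises and the p53 genes listed in the text were named. Alternatives were another pseudocount and filter, 2 scalings, GC correction, other sets of mice and single columns. A few genes are not reported here by name.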

Additional observations from a re-analysis of the deposited data

How the results depend on the processing

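The count of 787 calls (621 higher, 166 lower) was 299 when fitted to the 6 mice alone, 270 higher and 29 lower. It was 224 without A3278 and A3262 together (chosen after seeing the data), and it ranged from 262 to 750 without any 1 mouse. In the other settings, none of them leaving out a mouse, it was 621 to 1159, the highest in the fit of all 15 mice, which also held the control mice. Celf1 kept its direction and call in every setting.

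Of 158 called genes named by the rule or beyond it, 50 kept their call in every setting, 108 lost it in at least 1 and 0 changed sign. The fit to the 6 mice alone ended 74 of these calls, no filter on low values 47, the first column of each mouse 25, the last column (chosen after seeing the data) 27, a pseudocount of 0.1 8, quantile normalization 8, GC correction 7 and median-of-ratios scaling 4. Leaving out A3262 ended 84, A3264 58, A3278 50, A3281 42, A3277 37 and A3254 30, and leaving out A3278 and A3262 together 95. The cause was not tested.

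No paired analysis was possible because mouse numbers are unique to each group. With 3 mice per time and an estimated 16.5 to 46.4 M reads per column, genes under a mean of 1 RPKM were not tested, and the step cannot be told apart from column code.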
